A study of Mus musculus with 6 samples.

Results

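The Notch receptors, ligands and targets examined here were 10 genes, Notch1, Notch2, Notch3, Notch4, Dll1, Dll3, Jag1, Jag2, Hes1 and Rbpj, taken by name from the 55416 genes of the deposited count table. Each of the 10 names matched 1 Ensembl identifier, and all 10 genes passed the filter on low counts. The counts came from RNA-seq of epiblast-like cells (EpiLCs), the formative cells that mouse embryonic stem cells (mESCs) become on leaving the naïve state. The parental 46C line, which carries GFP under control of the neural gene Sox1, served as WT, and the Oct6 KO cells were 1 clone of that line with a homozygous single-base insertion in Oct6 (official symbol Pou3f1), so that the genotype and the clone cannot be told apart. Both were kept in 2i + LIF and then cultured for 48 h in N2B27 with 1% KSR, a serum replacement, bFGF and Activin A on fibronectin, in 3 biological replicates per genotype, which the deposited design text calls paired.

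Notch signalling passes between touching cells. A ligand of the Delta-like or Jagged type on one cell pulls on a Notch receptor of its neighbour, proteases of the ADAM family and then the γ-secretase complex cut the receptor, and the freed intracellular domain enters the nucleus, where it joins the DNA-binding protein RBPJ and Mastermind-like coactivators on target genes such as those of the Hes and Hey families. In the embryo the pathway is best known for segmentation of the paraxial mesoderm, for holding neural progenitors back from becoming neurons, and for blood vessel growth, while mESCs self-renew without it.

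Library totals ran from 10995505 to 14680930 counts, and levels are given as CPM on TMM-scaled library sizes. Oct6 itself was counted in every library, between 122 and 161 CPM in WT EpiLCs and between 127 and 141 CPM in KO EpiLCs (log2 fold change −0.10, standard error 0.11, adjusted p = 0.574), a measure in which transcripts with and without the insertion look the same. All 6 epiblast markers were counted, and although their summed level, most of it from Dnmt3b and Pou5f1, was between 2600 and 2890 CPM in WT libraries and between 2550 and 2690 CPM in KO libraries, Otx2, Fgf5 and Sox2 were higher in KO EpiLCs (log2 fold changes 0.92, 0.65 and 0.42). Of 6 naïve markers, Esrrb and Zfp42 were higher (1.39 and 0.54), and the sum went from between 185 and 194 CPM to between 251 and 320 CPM. Of 6 neural progenitor markers, only Sox1 and Nes passed the filter, both lower in KO EpiLCs, and the sum fell from between 41.2 and 45.4 CPM to between 15.7 and 17.0 CPM. Of the 6 markers of streak and paraxial mesoderm, only Eomes passed the filter and was higher (0.87, adjusted p = 0.00344), with sums between 6.09 and 6.64 CPM and between 9.03 and 12.5 CPM. Gata6 was higher among 5 endoderm markers (1.35, adjusted p = 0.0121), whose sums overlapped, and the part of any of these markers in the values below was not tested. The median log2 fold change of chromosome 16 was 0.55 above that of all genes and that of chromosome 6 was 0.40 below it (−0.40). In bulk RNA, fewer cells with a transcript and less transcript per cell cannot be told apart.

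Of the 10 genes, Notch3 and Dll3 were lower and Jag1 was higher in KO EpiLCs at an adjusted p below 0.1, the threshold of the study, and none reached an absolute log2 fold change of 1 (background 2.92% higher and 3.3% lower). These counts of 1 higher and 2 lower stand beside 11.8% higher and 12.5% lower among the 15746 genes tested (24.3% in either direction), so that a share of 3 in 10 is near the background. The median log2 fold change of the 10 genes was 0.07, and that of all genes tested 0.0014. Taking the libraries themselves, all 3 KO libraries were above all 3 WT libraries for Jag1 and Notch4 (background 16.6%) and below them for Notch3 and Dll3 (background 17.1%).

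**Figure D1:**
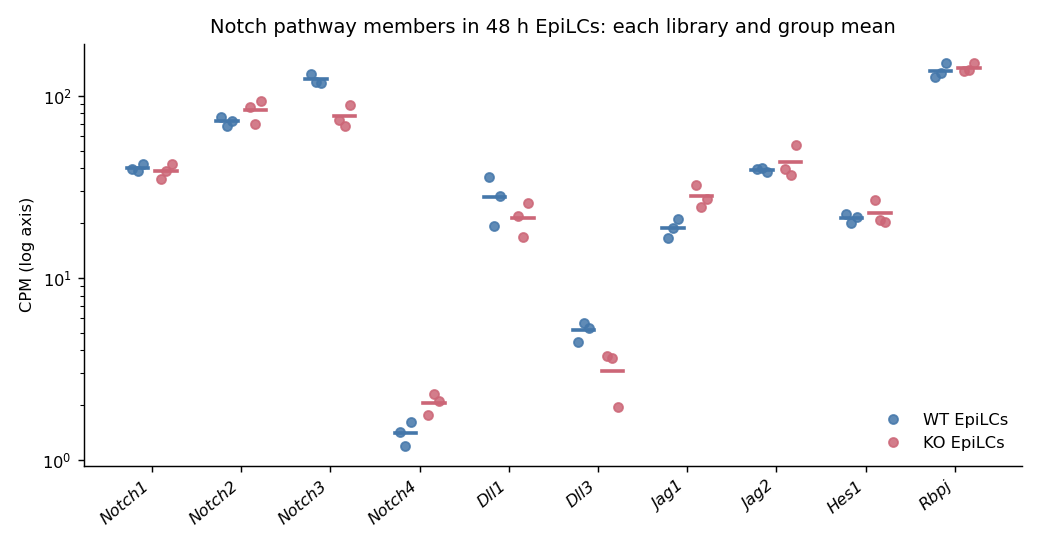
CPM on a log axis of the 10 Notch genes in each of the 3 WT (blue) and 3 KO (red) libraries, with a line at the group mean. The groups are apart for Notch3, Notch4, Dll3 and Jag1 and overlap for the other 6 genes.

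Notch3 (ENSMUSG00000038146.9, chr17:32339794-32385893, minus strand), a receptor known best from smooth muscle of arteries, was the most abundant of the receptors and the one that fell. In the order of the replicates, the WT libraries held 132, 119 and 118 CPM and the KO libraries 73.5, 68.6 and 88.9 CPM, and the same order is used for all genes. Every KO library lay below every WT library, and the highest KO value was that of replicate 3. Mean levels of 123 ± 7.50 and 77.0 ± 10.6 CPM (SD, n = 3 each) corresponded to 0.625 of the WT level, with a log2 fold change of −0.68, its standard error 0.11 and adjusted p = 0.000187 in the edgeR fit. The fall held in each replicate pair, at −0.84, −0.80 and −0.41. The lncRNA Gm17276, which lies antisense to Notch3 and shares 804 of its 9009 exonic bases, had between 7 and 15 counts per library, against at least 889 for Notch3.

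Notch1 and Notch2, the receptors that the mouse embryo cannot do without, did not pass the test. Notch1 (ENSMUSG00000026923.16, chr2:26347915-26406675, minus strand) had 39.5, 38.5 and 42.1 CPM in WT replicates and 34.9, 38.5 and 42.1 CPM in KO replicates, so that the groups overlapped and replicates 2 and 3 had the same level in both genotypes. Its log2 fold change of −0.06 had a 95% interval from −0.29 to 0.18 (adjusted p = 0.791). Notch2 (ENSMUSG00000027878.12, chr3:97920800-98057677, plus strand) had 76.3, 68.2 and 72.5 CPM in WT replicates and 86.5, 70.4 and 93.9 CPM in KO replicates. KO replicates 1 and 3 were above all WT libraries and KO replicate 2 was among them. The Notch2 log2 fold change was 0.21 (95% interval −0.03 to 0.44, adjusted p = 0.227), and without KO replicate 2 it was 0.32 and passed the threshold (adjusted p = 0.0796).

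Notch4 (ENSMUSG00000015468.15, chr17:34783220-34807477, plus strand), the receptor of endothelial cells, was close to the lower limit of the filter, with 19, 13 and 24 counts in WT replicates and 22, 30 and 28 counts in KO replicates. These were 1.42, 1.19 and 1.62 CPM against 1.78, 2.31 and 2.11 CPM, with no overlap between the groups. The log2 fold change of 0.54 carried a wide 95% interval, from −0.18 to 1.26, and did not pass the test (adjusted p = 0.317). Among the endothelial markers, the summed level was between 66.1 and 68.9 CPM in WT libraries and between 87.2 and 100 CPM in KO libraries. Most of it came from Pecam1, which did not pass the test (0.14, adjusted p = 0.471), and from Tek. Tek and Kdr were higher in KO EpiLCs (log2 fold changes 0.90 and 2.64). Cdh5 had 4, 0 and 2 counts in WT replicates and 2, 0 and 0 in KO replicates, and Emcn was at 0 in all libraries. The part of these markers in the Notch4 values was not tested.

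Levels of different genes were compared per kb of exon. In WT EpiLCs the sum over the 4 receptors was 23.1 ± 1.14 CPM per kb (SD, n = 3). In KO EpiLCs it was 18.9 ± 2.31 CPM per kb. For this sum, a two-sided exact permutation test that ignores the pairing gave p = 0.1, the smallest it can give for 3 against 3 libraries. Within this sum, Notch3 made up 60.1%, 59.8% and 57.8% in WT replicates and 44.1%, 45.2% and 46.1% in KO replicates. Notch2 made up 27.8%, 27.3% and 28.3% in WT replicates and 41.5%, 37.1% and 38.9% in KO replicates. The 2 sets of libraries did not overlap for either gene, the mean share of Notch3 being lower in KO EpiLCs by 14.1 percentage points (−14.1) and that of Notch2 higher by 11.4. Notch1 held 12.2% ± 0.818 and 14.4% ± 1.48 (SD, n = 3 each), and Notch4 held 0.690% ± 0.105 and 1.25% ± 0.262. Each of the 4 shares had an exact permutation p of 0.1, and since shares add up to a fixed total, a fall of one raises the others. In KO EpiLCs Notch3 was still the leading receptor by mean, at 8.55 ± 1.18 CPM per kb against 7.42 ± 1.06 CPM per kb for Notch2, but the libraries of these genes overlapped there, whereas in WT EpiLCs they stood apart at 13.7 ± 0.833 and 6.42 ± 0.360 CPM per kb.

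**Figure D2:**
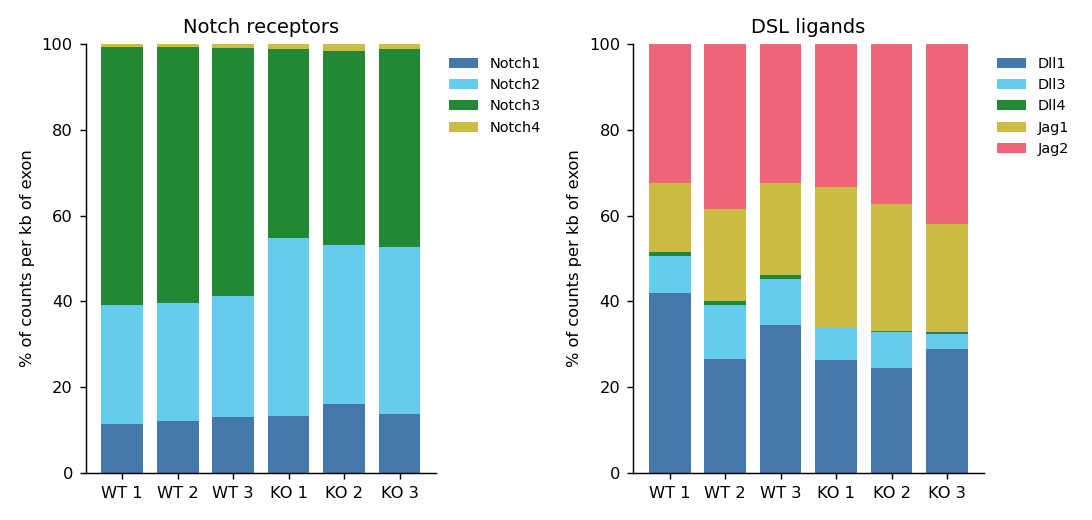
Share of each gene in the counts per kb of exon of the 4 Notch receptors (left) and of the 5 ligands with a DSL domain, Dll4 included (right), 1 bar per library. Notch3 takes from 57.8% to 60.1% of the receptor bars in WT and from 44.1% to 46.1% in KO, and Jag1 from 16.1% to 21.5% and from 25.3% to 32.8% of the ligand bars.

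Among the ligands, Jag1 rose, Dll3 fell, and Dll1 and Jag2 did not pass the test. Jag1 (ENSMUSG00000027276.8, chr2:136923373-136958693, minus strand), a ligand of the Jagged class, had 16.6, 18.9 and 21.1 CPM in WT replicates and 32.5, 24.5 and 27.1 CPM in KO replicates. All KO libraries were above all WT libraries, and KO replicate 1 was the highest. The means of 18.9 ± 2.27 and 28.0 ± 4.06 CPM (SD, n = 3 each) differed by 0.57 on the log2 scale (standard error 0.14, adjusted p = 0.00793), an increase of 48.5%. It was 0.97 in the first replicate pair and 0.38 and 0.36 in the other two.

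Dll3 (ENSMUSG00000003436.12, chr7:27992978-28001673, minus strand), a Delta-like protein that acts inside the cell on its own cell's Notch and is known from the presomitic mesoderm, was the least abundant ligand of the 10 genes. It had 4.48, 5.66 and 5.34 CPM in WT replicates and 3.73, 3.63 and 1.96 CPM in KO replicates, the last value resting on 26 counts. The groups did not overlap, but KO replicate 1 was close to WT replicate 1. It fell by 0.73 on the log2 scale (standard error 0.27, adjusted p = 0.0667). This call rested on single libraries, the value being −0.67 without WT replicate 2, −0.71 without WT replicate 3 and −0.48 without KO replicate 3, with adjusted p-values of 0.164, 0.147 and 0.259, and DESeq2's Wald test gave −0.74 with an adjusted p of 0.120. The sum of the neural markers given above moved in the same direction. That of the streak and paraxial mesoderm markers moved in the opposite one, most of it from Eomes (means 5.43 and 9.94 CPM). T and Mixl1 had lower means in KO EpiLCs and Mesp1, Tbx6 and Msgn1 higher ones, all with too few counts for the test. The part of either set in the Dll3 values was not tested. Its profile over the 6 libraries was most like those of Calb2, Trank1 and Reep1, with root mean square differences of 0.087, 0.098 and 0.14 in centred log2 CPM. Of these, only Reep1 passed the test (−0.76, adjusted p = 0.0221), and it lies on chromosome 6, whose median shift was −0.40.

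Dll1 (ENSMUSG00000014773.14, chr17:15587276-15597134, minus strand), the Delta-like ligand of neural and mesodermal progenitors, had 35.9, 19.4 and 28.3 CPM in WT replicates and 21.8, 16.8 and 25.7 CPM in KO replicates. The WT libraries were spread widely and overlapped the KO libraries, although each KO library was below the WT library with the same number, by −0.72, −0.21 and −0.14 on the log2 scale. The log2 fold change was −0.38 (95% interval −0.77 to 0.01, adjusted p = 0.177). With the replicate number as a block, a fit that compares each KO library with its own pair, it was −0.36 and passed the threshold (adjusted p = 0.0422), as it did without the filter (−0.39, adjusted p = 0.0600) and without WT replicate 2 (−0.58, adjusted p = 0.0240). Dll1 shares 1369 of its 4960 exonic bases with the antisense gene Fam120b, which had between 251 and 388 counts per library, and whether the counting used the strand is not stated. Jag2 (ENSMUSG00000002799.7, chr12:112871421-112893437, minus strand), the other Jagged ligand, had 39.5, 40.3 and 38.0 CPM in WT replicates and 39.4, 36.8 and 53.5 CPM in KO replicates. KO replicate 3 alone stood above the WT libraries, and the log2 fold change of 0.14 (95% interval −0.14 to 0.41, adjusted p = 0.528) was −0.04 without it.

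Dll4, the ligand of growing vessels, was not among the 10 genes and had too few counts for the test, 9, 6 and 9 in WT replicates and 0, 1 and 3 in KO replicates. The 3 counts taken here as the limit of detection correspond to between 0.204 and 0.273 CPM per library, a limit that covers counting error only. The 5 ligands together came to 16.2 ± 1.26 CPM per kb (SD, n = 3) in WT EpiLCs and 16.2 ± 2.07 CPM per kb in KO EpiLCs (exact permutation p = 1). Within that sum the Jag1 share was 16.1%, 21.5% and 21.5% in WT replicates and 32.8%, 29.6% and 25.3% in KO replicates (exact permutation p = 0.1). The Dll1 share was 42.0%, 26.5% and 34.5% in WT replicates and 26.4%, 24.4% and 28.9% in KO replicates, which overlapped (exact permutation p = 0.2). Jag2 held 34.4% ± 3.53 and 37.6% ± 4.28 (SD, n = 3 each, exact permutation p = 0.5), and Dll3 held 10.6% ± 2.02 and 6.49% ± 2.60 (exact permutation p = 0.2).

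Rbpj (ENSMUSG00000039191.13, chr5:53623494-53814704, plus strand), the DNA-binding partner of all 4 receptors and a repressor in their absence, was the most abundant of the 10 genes by CPM, with 126, 133 and 151 CPM in WT replicates and 137, 138 and 151 CPM in KO replicates. The groups overlapped throughout. Its log2 fold change of 0.06 had the narrowest 95% interval of the 10 genes, from −0.15 to 0.27 (adjusted p = 0.765). Rbpj has processed pseudogenes in the mouse genome, among which counting could have divided reads. The coactivators Maml1, Maml2 and Maml3 did not pass the test either, with log2 fold changes of −0.28, 0.72 and −0.90 (adjusted p = 0.431, 0.307 and 0.136) at mean levels of at most 8.67 CPM.

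Per kb of exon, the order of the mean levels in WT EpiLCs was Notch3, Rbpj, Notch2, Hes1, Dll1, Jag2, Jag1, Notch1, Dll3 and Notch4, from 13.7 down to 0.159 CPM per kb. Neighbours overlapped between their libraries for Notch2 and Hes1, Hes1 and Dll1, Dll1 and Jag2, and Jag1 and Notch1. In KO EpiLCs it was Rbpj, Notch3, Notch2, Hes1, Jag2, Jag1, Dll1, Notch1, Dll3 and Notch4, from 11.1 to 0.234 CPM per kb, and all neighbours from Notch3 to Dll1 overlapped. The order depends on the length used. With the canonical transcript in place of the union of all exons, Rbpj led in both groups, at 25.1 ± 2.40 and 26.1 ± 1.40 CPM per kb, and Hes1 moved up to 14.0 ± 0.806 and 14.8 ± 2.35 CPM per kb, next to Notch3 in WT EpiLCs (15.2 ± 0.928) and above it in KO EpiLCs (9.52 ± 1.31).

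Hes1 (ENSMUSG00000022528.9, chr16:29882134-29886643, plus strand), the bHLH repressor through which Notch holds progenitors in place, did not pass the test, and it lies on chromosome 16, most of whose genes were higher in KO EpiLCs. It had 22.4, 20.0 and 21.6 CPM in WT replicates and 26.8, 20.8 and 20.4 CPM in KO replicates. KO replicate 1 was above all WT libraries and the other KO libraries were among them. The log2 fold change was 0.09 (95% interval −0.21 to 0.38, adjusted p = 0.745), and −0.05 without KO replicate 1. On chromosome 16, 308 of 471 tested genes were higher and 2 lower in KO EpiLCs, with a median log2 fold change of 0.55, and only 9.77% of them had a lower value than Hes1. The 58 other tested genes within 5 Mb of Hes1 had a median of 0.58, 57 of them were above 0, and 40 were called higher. Chromosome 16 held between 2.61% and 2.70% of the counts in WT libraries and between 3.98% and 4.06% in KO libraries. With the median shift of each chromosome taken out of the KO libraries, the Hes1 log2 fold change was −0.46 (adjusted p = 0.0301). That fit takes the shift as known, so its p-value leaves out how widely the genes of chromosome 16 spread around their median. No other of the 10 genes lies on chromosome 16 or 6, and the shifts of their chromosomes were between −0.03 and 0.04.

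**Figure D3:**
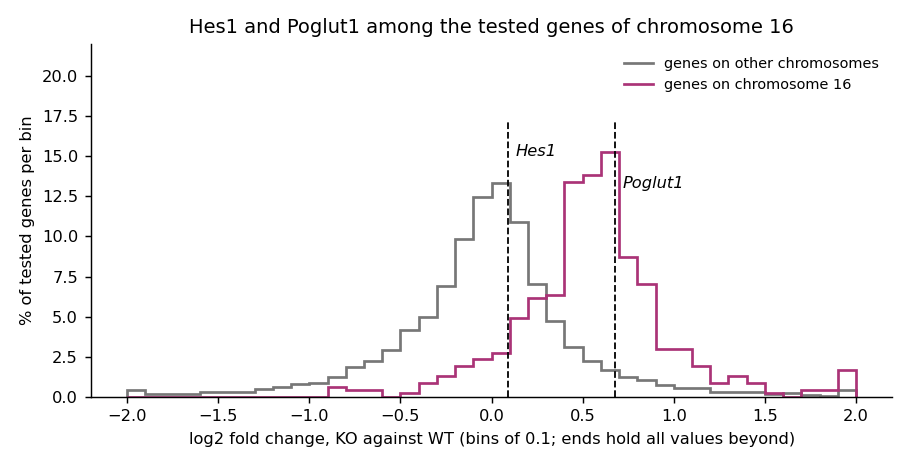
Percentage of tested genes in bins of log2 fold change (KO against WT) for chromosome 16 (purple) and for the other chromosomes (grey), with dashed lines at Hes1 (0.09) and at Poglut1 (0.68). Hes1 lies near the centre of the grey distribution and on the low side of the purple one, whose median is 0.55.

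Of the other targets in the list, Hey1 and Dtx1 fell and Nrarp did not pass the test. Hey1, a bHLH repressor related to the Hes genes, had 25, 18 and 27 counts in WT replicates and 8, 5 and 7 counts in KO replicates. These were 1.87, 1.64 and 1.83 CPM against 0.648, 0.386 and 0.527 CPM, with a wide gap between the groups. Its value of −1.76 on the log2 scale (standard error 0.42, adjusted p = 0.00574) was the largest fall of the pathway genes tested. Dtx1 (Deltex), which encodes a ubiquitin ligase that binds Notch receptors, had 31.9, 35.7 and 31.8 CPM in WT replicates and 20.3, 18.8 and 20.5 CPM in KO replicates. All KO libraries were well below all WT libraries, by −0.73 on the log2 scale (standard error 0.12, adjusted p = 0.000295). Dtx1 shares 1832 of its 6010 exonic bases with the antisense gene Rasal1, which also fell (−0.70, adjusted p = 0.0114), and without use of the strand their reads cannot be told apart. Nrarp, a feedback inhibitor, had 4.66 ± 1.43 and 4.39 ± 1.99 CPM (SD, n = 3 each, log2 fold change −0.09, adjusted p = 0.879). The remaining targets were too low for the test, with Hes7 at 0 in all libraries, Hes5 at 3, 3 and 2 counts in WT replicates and 0, 1 and 1 in KO replicates, and at most 6 counts of Hey2 or Heyl in any library. For Hes7, 0 counts allow a level of up to 0.273 CPM. Of the 8 targets, 4 were tested, of which 2 were lower and none higher, and with 12.5% of all genes lower nothing is read from so few.

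The 250 bases before the start of the canonical transcript were read from GRCm39. As examples, the windows of the targets Hes1 and Dtx1 and of the glycosyltransferase gene Lfng are printed, chosen because each holds the core letters bound by RBPJ. Of the other targets in the list, Hes5, Hes7, Hey1 and Hey2 held these letters in their windows, and Nrarp and Heyl did not. Capitals mark TGGGAA or its reverse complement TTCCCA.
Hes1, chr16:29883877-29884126, + strand: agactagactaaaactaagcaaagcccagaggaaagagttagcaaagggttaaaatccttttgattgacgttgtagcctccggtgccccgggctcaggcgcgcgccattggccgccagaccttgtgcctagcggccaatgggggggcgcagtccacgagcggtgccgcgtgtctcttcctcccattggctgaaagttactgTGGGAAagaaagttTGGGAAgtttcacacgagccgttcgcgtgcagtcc
Dtx1, chr5:120849993-120850242, - strand: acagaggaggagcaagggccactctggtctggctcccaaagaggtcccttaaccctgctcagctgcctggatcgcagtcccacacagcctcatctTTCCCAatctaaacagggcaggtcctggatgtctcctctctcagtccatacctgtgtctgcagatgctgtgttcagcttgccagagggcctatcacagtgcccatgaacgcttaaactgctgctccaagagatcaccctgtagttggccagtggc
Lfng, chr5:140592825-140593074, + strand: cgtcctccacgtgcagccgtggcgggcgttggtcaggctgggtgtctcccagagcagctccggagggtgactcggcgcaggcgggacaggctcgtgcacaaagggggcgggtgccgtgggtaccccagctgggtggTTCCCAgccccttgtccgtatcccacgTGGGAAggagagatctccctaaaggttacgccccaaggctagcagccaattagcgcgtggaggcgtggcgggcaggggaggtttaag
The Hes1 window holds the letters at 49 to 44 and at 35 to 30 bases before the start, in the same orientation, the Dtx1 window at 155 to 150 bases, and the Lfng window at 114 to 109 and at 87 to 82 bases. TGGGAA was found on either strand in 22.7% of the 21770 windows of protein-coding genes, in 2 of the 10 Notch genes (Hes1 and Rbpj) and in 5 of the 19 pathway genes that passed the test. The Rbpj window lies within annotated Rbpj exons over all its 250 bases. The octamer ATGCAAAT, to which POU factors such as OCT6 bind, or its reverse complement ATTTGCAT was found in 1.49% of all windows. It was found in none of the 10 genes and in none of the 19. Of the 45 pathway genes with a window that did not pass or were not tested, 1 held it, Nrarp, at 49 to 42 bases. None of the windows printed here holds the octamer. These are matches of letters in a short window and not binding sites, and Dtx1 and Lfng fell while Hes1 did not pass the test.

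The 3 genes of the 10 that did pass it, Notch3, Dll3 and Jag1, held neither motif in the same window, and their sequences are given for comparison, all in lower case because nothing matched.
Notch3, chr17:32385894-32386143, - strand: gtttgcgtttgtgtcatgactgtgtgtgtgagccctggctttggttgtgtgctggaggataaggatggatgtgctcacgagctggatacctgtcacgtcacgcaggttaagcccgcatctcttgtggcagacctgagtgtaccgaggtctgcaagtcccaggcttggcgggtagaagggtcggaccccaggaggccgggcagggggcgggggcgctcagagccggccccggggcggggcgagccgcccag
Dll3, chr7:28001674-28001923, - strand: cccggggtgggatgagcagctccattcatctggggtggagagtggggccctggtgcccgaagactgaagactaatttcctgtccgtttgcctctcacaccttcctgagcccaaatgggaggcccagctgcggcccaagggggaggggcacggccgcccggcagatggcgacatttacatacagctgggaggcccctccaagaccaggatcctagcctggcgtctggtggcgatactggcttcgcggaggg
Jag1, chr2:136958694-136958943, - strand: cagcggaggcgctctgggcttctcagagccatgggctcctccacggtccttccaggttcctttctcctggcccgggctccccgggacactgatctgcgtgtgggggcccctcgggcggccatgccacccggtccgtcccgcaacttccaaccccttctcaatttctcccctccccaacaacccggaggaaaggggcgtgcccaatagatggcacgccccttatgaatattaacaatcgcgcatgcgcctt

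The surroundings of the 10 genes in the pathway were described with a list of 65 genes by role, the 10 included, of which 57 passed the filter. Of these, 5 were higher and 14 lower in KO EpiLCs, the rest not passing, with a median log2 fold change of −0.11. Without the 10 genes, 4 were higher and 12 lower of 47 tested, with a median of −0.14, beside 11.8% higher and 12.5% lower among all genes tested. Only Hey1 and Aph1b reached an absolute log2 fold change of 1, beside a background of 6.21% in either direction. The count of lower genes depended on the fit, falling to 8 with DESeq2 and to 7 at an adjusted p below 0.05.

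**Figure D4:**
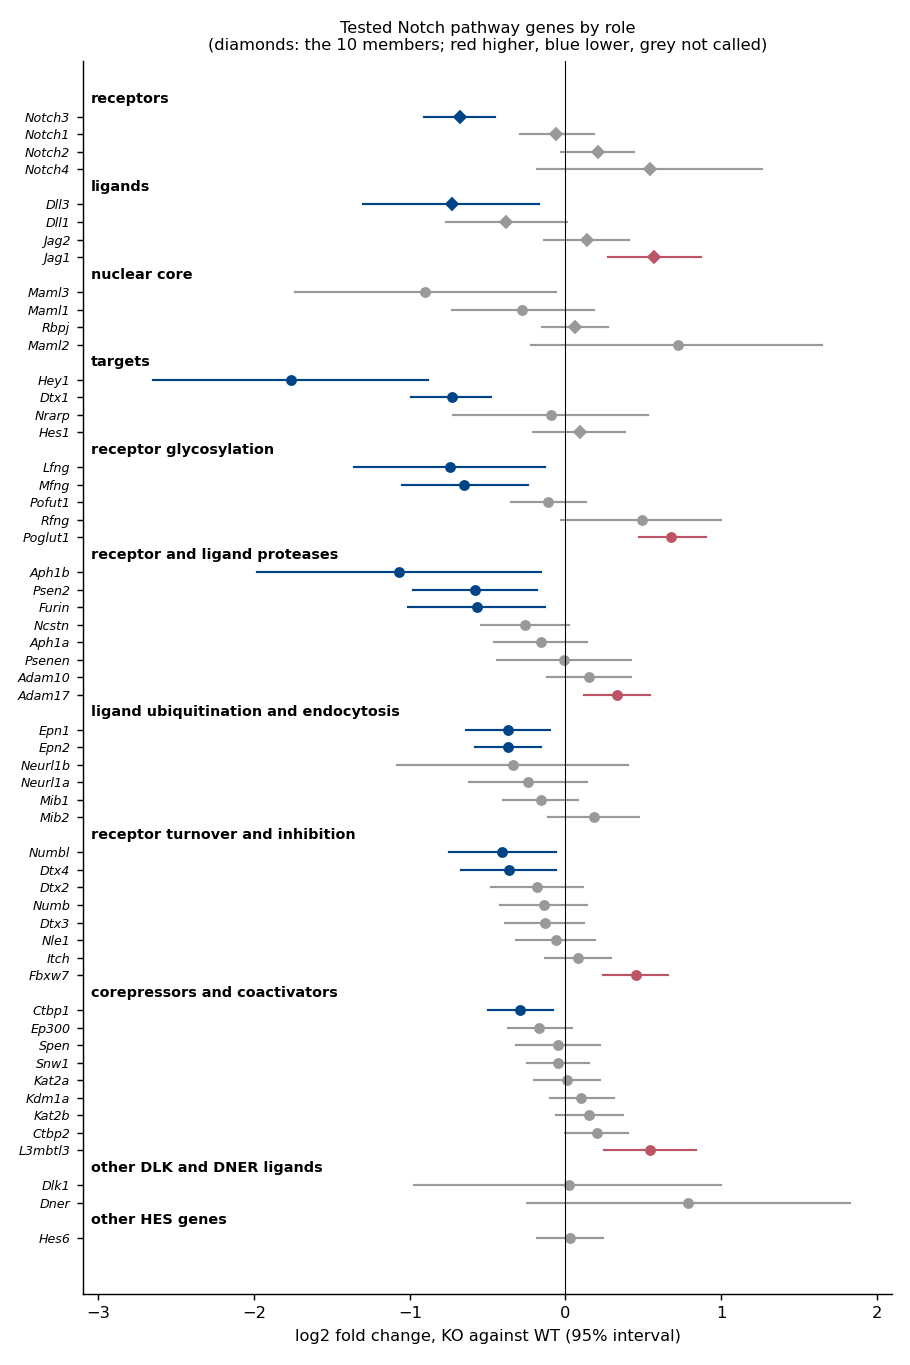
Log2 fold change (KO against WT) with its 95% interval for 55 of the 57 tested pathway genes, grouped by role, with diamonds for the 10 Notch genes and dots for the others. Called genes are coloured (5 red, higher, and 14 blue, lower), and the rest are grey.

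Of the 5 genes for enzymes that add sugars to Notch receptors, Lfng and Mfng were called lower and Poglut1 higher. The shares called among all genes tested were 12.5% lower and 11.8% higher. Fringe proteins lengthen O-fucose on the receptor and change which ligands it answers. Mfng (manic fringe) had 9.85, 13.2 and 10.1 CPM in WT replicates and 6.08, 8.49 and 6.54 CPM in KO replicates, with no overlap and a log2 fold change of −0.65 (adjusted p = 0.0239), which did not pass without WT replicate 2 (−0.51, adjusted p = 0.122). Lfng (lunatic fringe) had 4.18 ± 1.23 and 2.50 ± 0.647 CPM (log2 fold change −0.74, adjusted p = 0.0892), and its libraries overlapped. The Lfng call was lost on leaving out WT replicate 1 (−0.50) or 3 (−0.79) or KO replicate 1 (−0.68) or 2 (−0.61), with DESeq2 (adjusted p = 0.170) and with the chromosome shifts removed (adjusted p = 0.106). Rfng (radical fringe) and Pofut1, which adds the first fucose, did not pass, with log2 fold changes of 0.49 and −0.11 (adjusted p = 0.194 and 0.563). Poglut1, which adds O-glucose, had 82.5, 89.4 and 81.2 CPM in WT replicates and 148, 137 and 122 CPM in KO replicates. Its log2 fold change of 0.68 (adjusted p = 9.63e-05) stood beside the median of 0.55 of its chromosome, 16, and with the chromosome shifts removed it was 0.14 and did not pass (adjusted p = 0.421).

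Of the 9 protease genes, 1 was higher and 3 were lower, beside 11.8% and 12.5% of all genes tested, and each of these 4 calls was lost when some single libraries were left out. Adam17, a sheddase that can cut Notch receptors, rose from 65.7 ± 3.01 to 82.5 ± 4.74 CPM (SD, n = 3 each, log2 fold change 0.33, adjusted p = 0.0248), which did not pass without KO replicate 1 (0.28, adjusted p = 0.123). Adam10, the main protease for ligand-induced cleavage, had a log2 fold change of 0.15 (adjusted p = 0.473). Furin, the convertase that processes the receptor on its way to the surface, fell from 7.28 ± 1.08 to 4.89 ± 0.592 CPM (log2 fold change −0.57, adjusted p = 0.0656), but not past the threshold without WT replicate 1, KO replicate 1 or KO replicate 3 (−0.45, −0.49 and −0.57) or with DESeq2 (adjusted p = 0.128). In γ-secretase, the catalytic subunit gene Psen2 fell from 10.1 ± 0.186 to 6.71 ± 1.40 CPM (log2 fold change −0.58, adjusted p = 0.0386), a call lost without KO replicate 2 or KO replicate 3 (−0.46 and −0.54). Aph1b, an alternative subunit at 1.93 ± 0.633 and 0.912 ± 0.433 CPM, had a log2 fold change of −1.07 (adjusted p = 0.0963), which did not pass without WT replicate 2 (−0.95) or 3 (−0.91) or KO replicate 1 (−1.12) or 3 (−0.74) or with DESeq2 (adjusted p = 0.202). Ncstn, Aph1a and Psenen did not pass.

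The ubiquitin ligase Mib1, which lets ligands be pulled into the sending cell, was abundant in both genotypes, at 217 ± 37.6 and 195 ± 14.5 CPM (log2 fold change −0.16, adjusted p = 0.391). The endocytic adaptors Epn1 and Epn2 were lower, each with a log2 fold change of −0.37. Epn2 had 101, 105 and 88.6 CPM in WT replicates and 74.4, 74.8 and 79.3 CPM in KO replicates (adjusted p = 0.0134). Epn1 had between 46.3 and 46.7 CPM in WT libraries and 29.0, 35.9 and 42.9 CPM in KO replicates (adjusted p = 0.0518), and lost its call without KO replicate 1 or KO replicate 2 (−0.24 and −0.37). Fbxw7, the ubiquitin ligase subunit that marks the Notch intracellular domain for degradation, rose from 75.4 ± 5.70 to 103 ± 6.98 CPM, with 0.46, 0.46 and 0.43 in the replicate pairs and a log2 fold change of 0.45 (adjusted p = 0.00364). Numbl and Dtx4 were lower at the edge of the threshold (log2 fold changes −0.41 and −0.36, adjusted p = 0.0957 and 0.0912). Numbl lost its call without WT replicate 1 (−0.29) or 3 (−0.40) or KO replicate 1 (−0.30) or 2 (−0.37), and Dtx4 without WT replicate 2 (−0.35) or 3 (−0.29) or KO replicate 1 (−0.31) or 2 (−0.32). Both also lost it with DESeq2 (adjusted p = 0.134 for each) and with the chromosome shifts removed (adjusted p = 0.107 and 0.138), and Dtx4 without the filter (adjusted p = 0.111). Numb, the inhibitor divided unequally between sister cells, had a log2 fold change of −0.14 (adjusted p = 0.534), and Itch one of 0.08 (adjusted p = 0.662).

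Of the 10 corepressor and coactivator genes, L3mbtl3, whose protein binds RBPJ and helps to silence its targets, rose from 14.8 ± 0.965 to 21.6 ± 2.07 CPM (log2 fold change 0.54, adjusted p = 0.0101), with all KO libraries above all WT libraries. Ctbp1 had a log2 fold change of −0.29 (adjusted p = 0.0463), a call lost without WT replicate 1, KO replicate 1 or KO replicate 3 (−0.21, −0.29 and −0.27). Its paralog Ctbp2 had one of 0.20 (adjusted p = 0.174), which passed with the replicate number as a block (0.20, adjusted p = 0.0793). Spen, Kdm1a, Snw1, Ep300, Kat2a and Kat2b did not pass, with log2 fold changes between −0.17 and 0.15. Of the ligands outside the DSL class, Dlk1 and Dner did not pass, and Hes6, a HES gene that is not driven by Notch, had 89.3 ± 6.56 and 91.1 ± 5.27 CPM (log2 fold change 0.03, adjusted p = 0.887).

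Across the other fits, Notch3 and Jag1 kept their calls in all 14 alternatives, with log2 fold changes from −0.79 to −0.60 and from 0.45 to 0.66, as did Dtx1, Epn2, Fbxw7 and L3mbtl3 in the pathway list, and Hey1 in the 13 that tested it. Dll3 kept its call in 9 of 14. With the chromosome shifts removed, Hes1 was at −0.46, outside its leave-one-out range of −0.05 to 0.16. The other Notch genes could hardly move in that fit, their chromosome shifts being between −0.03 and 0.04, so nothing is read from their steadiness.

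**Figure D5:**
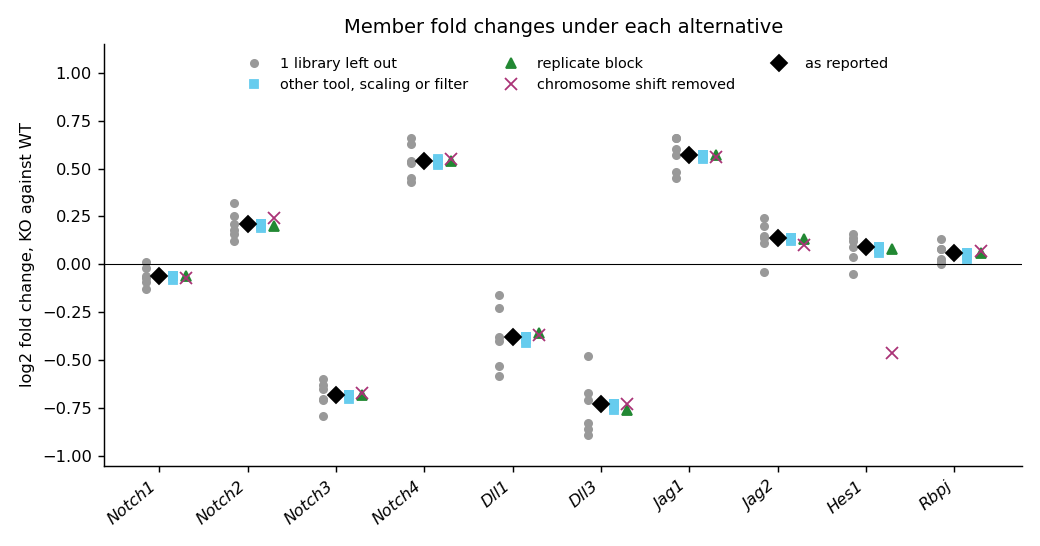
Log2 fold change (KO against WT) of the 10 Notch genes as reported (black diamonds), with 1 library left out (grey), with another tool, scaling, filter or threshold (light blue), with the replicate block (green) and with the chromosome shifts removed (purple crosses). Notch3, Dll3 and Dll1 stay below 0 and Jag1, Notch2 and Notch4 above 0 throughout, and the cross of Hes1 lies at −0.46.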

How the data were processed

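RNA-seq counts of 6 libraries, 3 WT and 3 KO, were used. Per the labels and the methods of the study, the authors removed ribosomal RNA, made stranded libraries, checked reads with FastQC, trimmed them with Fastp and aligned to GRCm39 by two-pass STAR, which also counted them. The deposited values are raw counts per gene, without normalization. Versions, annotation release, strand setting and the treatment of multiply mapped reads are not given in the sources used here. Totals ran from 10995505 to 14680930 counts.

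Identifiers were matched to GENCODE M39 (54749 of 55416). In R 4.3.3, edgeR 4.0.16 was run with TMM, filterByExpr (minimum count 10, 15746 genes kept) and the quasi-likelihood test, genotype being the only term, with Benjamini-Hochberg adjustment and a threshold of 0.1. Standard errors come from the F statistic and intervals are 95%. The biological coefficient of variation was 11.7%. On simulated data with 15746 genes, the test recovered 44% of changes of 0.5 and 85% of changes of 1 in log2 units. The simulation changed 200 genes, gave all genes the same dispersion and held no pairs. In the data 24.3% of genes were called, so these rates need not hold there. Shares were compared by two-sided exact permutation tests. Upstream windows were read from GRCm39 with Python 3.11.15.

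The deposited design text calls the replicates paired. Over 13878 genes, deviations from group means correlated at 0.215, 0.260 and 0.111 between same-numbered libraries and at −0.193 to −0.0298 between others. Deviations within a group cancel out, so the negative values follow from the positive ones and add no support of their own. From the positive values and the design text, the numbers were taken to pair the libraries. Libraries of a group differed beyond sampling noise (chi-square per degree of freedom 6.31 to 10.6).

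The genes named are the 10 members, Pou3f1, every pathway list gene that passed the threshold and the 3 genes with the profile closest to that of the member with the largest change, and other list genes are named to complete a role. Some list genes are counted but not reported singly here. The members and lists were chosen with earlier results of these data known. Alternatives were DESeq2 1.42.0, RLE factors, library totals alone, no filter, 10 counts in every library, a replicate block, a threshold of 0.05, removal of the median shift of each chromosome, and each library left out.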

Additional observations from a re-analysis of the deposited data

How the results depend on the processing

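The number of the 10 Notch genes called lower in KO EpiLCs was 2 as reported and 1 with DESeq2 or an adjusted p below 0.05, and between 1 and 2 with a library left out. It was 3 with the replicate block, with no filter and with the chromosome shifts removed, the last a fit that takes the shifts as known. The number called higher was 1, and between 1 and 2 with a library left out. Of the 65 pathway genes, of which 57 were tested, 14 were called lower as reported. The count was 8 with DESeq2, 7 at an adjusted p below 0.05 and between 7 and 11 with a library left out, the lowest without KO replicate 1. The lower counts over all genes were 1969 as reported, 1685 with DESeq2, 1537 at an adjusted p below 0.05 and between 1574 and 1860 with a library left out. With a library left out, between 4 and 6 pathway genes were called higher, beside between 1433 and 1930 of all genes. Over all genes, 2357 were higher and 2407 lower with the replicate block against 1864 and 1969. The block changed the calls of Dll1 (−0.36, adjusted p = 0.0422) and Ctbp2 and no other call of a pathway gene. The sign turned for Hes1 with the chromosome shifts removed (−0.46, adjusted p = 0.0301) and, for genes that passed no test, without 1 library, namely KO replicate 1 for Notch1 (−0.13 to 0.01 over the libraries left out) and Hes1 (−0.05 to 0.16), KO replicate 3 for Jag2 (−0.04 to 0.24) and WT replicate 1 for Rbpj (0.00 to 0.13). The share differences kept their signs without division by length, with canonical transcript lengths, a setting chosen after seeing the data, and with any library left out. The standard errors were 0.34 for Notch4, 0.45 for Maml2 and 0.40 for Maml3, genes with few counts, against 0.11 for Notch1 and Notch3.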
